A study of Mus musculus with 2 samples.

Results

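Immediate early genes are switched on within minutes of a signal, without new protein synthesis, and many encode transcription factors that pass the signal on. In liver they are known for their response to feeding state, injury, partial hepatectomy and the handling of tissue. Growth arrest genes of the Gadd45 and Btg families respond to stress and DNA damage and hold cells out of division. The set described here was chosen by name, with earlier results of these data known. It holds 10 genes of both kinds, namely Egr1, Fos, Jun, Junb, Atf3, Ier2, Btg2, Gadd45a, Gadd45b and Gadd45g. Of these, 7 were measured among the 13326 gene symbols of the tables, and Fos, Atf3 and Gadd45b were not analysed here.

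The data are liver RNA sequencing of male C57BL/6J mice aged 12 weeks, killed after a night without food, either wild type or Adipoq-/-, a genotype without the adipocyte hormone adiponectin. The RNA of 9 to 10 animals per genotype was pooled, so there was 1 library per genotype and 2 libraries in all. No difference below therefore has a replicate check, no test across samples was possible, and no p-value is given. The targeted gene Adipoq was not analysed here and did not serve as a check of the genotype labels. Values are FPKM, in which fragments are normalised to transcript length and library size. The depth behind each value is unknown. In liver as a whole, fewer cells of a type and less RNA per cell cannot be told apart.

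Each of the 7 measured genes had a lower FPKM in the Adipoq-/- library than in the wild-type library. Gadd45g stood farthest apart, at 8.51 FPKM in wild-type and 2.41 in Adipoq-/- liver, followed by Egr1 at 2.19 and 0.783. The differences as deposited ran from 1.17-fold for Ier2 to 3.53-fold for Gadd45g, with a median of 1.63-fold. Most genes were also lower in the knockout library. Over the 11985 genes that reached 1 FPKM in either library, 66.9% were lower as deposited, and the median of log2((knockout FPKM + 1) / (wild-type FPKM + 1)) was -0.15, a 1.11-fold difference. Ratios below are therefore given relative to that median, as the relative log2 ratio. The added 1 FPKM makes this scale understate the difference of low genes.

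On the relative scale all 7 measured genes still lay below 0, where 50% of all genes lay, and the median of the 7 was -0.39. Genes of their level leaned the same way, since 73.5% of those with a mean under 3 FPKM and 76% of those with 3 to 10 FPKM were lower as deposited, and 56.9% and 58.1% lay below 0 on the relative scale. Because 7 of 10 named genes were measured, this describes the measured ones only. Earlier results of these data were known when the set was chosen, so the counts of members are a description and no independent support. A difference of at least 1.5-fold downward was reached by 2 of the 7, Gadd45g and Egr1, against 2.61% of all genes. One of them, Gadd45g, was at least 2-fold lower, against 0.476% of all genes. The other, Egr1, passed the minimum of 1 FPKM only through the wild-type library, where it was higher. None of the 7 was at least 1.5-fold higher, against 6.73% of all genes, or 2-fold higher, against 0.884%. The split of all genes past 1.5-fold depended on scaling. With 1 FPKM added and no centring 6.17% were lower and 3.23% higher, and with 1 FPKM added after rescaling to equal summed FPKM 12.5% were lower and 1.52% higher. Of the measured members 2 were lower and 0 higher without centring, and 4 and 0 with equal sums. On plain FPKM, with nothing added and no centring, 5 of the 7 were at least 1.5-fold lower (Gadd45g, Egr1, Jun, Btg2 and Gadd45a), against 13.6% of all genes, and 0 were higher. This last setting was chosen after the values were seen.

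The Gadd45 genes encode small acidic nuclear proteins that bind PCNA and the mitotic kinase CDK1 and activate the kinase MAP3K4 upstream of p38 and JNK. Their promoters are shown because this pair held nearly the same level in wild-type liver and differed in the knockout library. The windows run from 250 bases before to 50 after the RefSeq transcription start (GRCm38.p6), at chr13:51846425-51846724 on the plus strand for Gadd45g and chr6:67037358-67037657 on the minus strand for Gadd45a. Capitals mark matches to the motifs named further below, which here are CCAAT in both windows and TATAAA in that of Gadd45g.
Gadd45g: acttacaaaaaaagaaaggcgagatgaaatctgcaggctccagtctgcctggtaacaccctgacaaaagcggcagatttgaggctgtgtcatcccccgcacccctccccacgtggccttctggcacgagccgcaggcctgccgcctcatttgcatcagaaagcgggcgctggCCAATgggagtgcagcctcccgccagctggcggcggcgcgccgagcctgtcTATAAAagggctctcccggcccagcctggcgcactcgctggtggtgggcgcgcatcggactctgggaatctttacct
Gadd45a: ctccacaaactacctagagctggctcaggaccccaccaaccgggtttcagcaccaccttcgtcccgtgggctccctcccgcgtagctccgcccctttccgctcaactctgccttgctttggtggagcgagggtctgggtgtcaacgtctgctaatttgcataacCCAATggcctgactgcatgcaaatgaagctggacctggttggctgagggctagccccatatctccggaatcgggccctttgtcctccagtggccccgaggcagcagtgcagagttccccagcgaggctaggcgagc
The Gadd45g window holds CCAAT from 78 to 74 and TATAAA from 27 to 22 bases before the start, whereas the Gadd45a window holds CCAAT from 86 to 82 bases before it and no TATAAA.

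In the wild-type library Gadd45a (8.64 FPKM) and Gadd45g (8.51 FPKM) were the highest of the 7, and each made up about the same part of their summed FPKM, 24.3% and 24.0%. In the knockout library Gadd45a was at 5.61 FPKM and Gadd45g at 2.41, so that Gadd45a stood 2.33-fold above Gadd45g. The relative log2 ratio of Gadd45g was -1.33, the 27th lowest of 11985 genes. Among the 3492 genes with a mean of 3 to 10 FPKM, where 2.75% were at least 1.5-fold lower, 0.200% had a ratio as low or lower. Gadd45a had a relative log2 ratio of -0.39, and 9.16% of genes of that level lay as low or lower. The difference of Gadd45a was thus inside the range of many genes of its level, where 95% of ratios lay between -0.61 and 0.69, and that of Gadd45g was outside it. Gadd45g alone made up 40.9% of the difference in summed FPKM of the 7 genes, 35.5 in wild-type and 20.6 in Adipoq-/- liver. Without it the sums were 27.02 and 18.2 FPKM.

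Egr1 encodes a zinc finger transcription factor induced by growth factors and stress through MAP kinases and the serum response factor. Its FPKM was 2.19 in wild-type and 0.783 in Adipoq-/- liver, 35.7% of the wild-type value. It ranked 5 of 7 in wild-type liver and was the lowest in the knockout library. It passed the minimum of 1 FPKM through its wild-type value alone. Its relative log2 ratio of -0.69 was the 186th lowest. Of the 3502 genes with a mean under 3 FPKM, 3.46% were at least 1.5-fold lower and 2.06% lay as low as Egr1 or lower. At this level 95% of the ratios lay between -0.66 and 0.79, so Egr1 lay just outside that range. Its distance from 0 depended on the added value, with -1.20 for an added 0.1 FPKM, and it was -0.58, short of 1.5-fold, after correction for transcript length.

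Jun and Junb encode basic leucine zipper subunits of AP-1, the dimeric factor that Fos proteins join. JUN drives hepatocyte proliferation in regenerating liver, while JUNB can oppose it. Their promoter windows, shown as the pair of AP-1 subunits that were measured, lie at chr4:95052173-95052472 (Jun) and chr8:84978699-84978998 (Junb), both on the minus strand of GRCm38.p6, with the same capitals.
Jun: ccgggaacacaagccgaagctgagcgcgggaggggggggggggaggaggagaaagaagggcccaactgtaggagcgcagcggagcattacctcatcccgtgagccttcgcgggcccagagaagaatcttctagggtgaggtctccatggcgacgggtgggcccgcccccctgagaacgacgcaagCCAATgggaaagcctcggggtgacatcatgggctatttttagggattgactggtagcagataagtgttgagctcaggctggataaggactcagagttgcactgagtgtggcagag
Junb: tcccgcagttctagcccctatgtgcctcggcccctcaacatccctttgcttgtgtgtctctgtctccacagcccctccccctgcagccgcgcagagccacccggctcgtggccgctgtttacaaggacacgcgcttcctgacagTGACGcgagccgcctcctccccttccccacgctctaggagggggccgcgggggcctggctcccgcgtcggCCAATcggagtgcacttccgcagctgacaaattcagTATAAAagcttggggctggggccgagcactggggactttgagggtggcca
The Jun window holds CCAAT from 65 to 61 bases before the start. That of Junb holds the short CRE form TGACG from 106 to 102 and CCAAT from 36 to 32 bases before the start, and TATAAA at the annotated start itself.

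Jun was at 2.07 FPKM in wild-type and 1.098 in Adipoq-/- liver, and Junb at 4.85 and 3.26. Junb was thus the more abundant of the pair in both libraries, by 2.35-fold and 2.97-fold. Both were lower in the knockout library, 1.88-fold for Jun and 1.49-fold for Junb as deposited. Their relative log2 ratios of -0.40 and -0.31 did not reach 1.5-fold, although Jun did with an added 0.1 FPKM (-0.68) and with equal sums (-0.63). Of the genes in the same class of level, 8.85% lay as low as Jun or lower and 15.1% as low as Junb or lower, so neither stood outside the common range of its class.

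Ier2 encodes a nuclear protein induced with the other immediate early genes, and it differed least. It was at 7.501 FPKM in wild-type and 6.39 in Adipoq-/- liver, which moved it from the third highest of the 7 genes to the highest. The relative log2 ratio of -0.051 put it next to the median of all genes, and 50.6% of genes of its level lay as low or lower. Ier2 was therefore not set apart from other genes in this pair of libraries.

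Btg2 encodes an antiproliferative protein that recruits the CCR4-NOT deadenylase and is a target of p53. Its promoter window lies at chr1:134079106-134079405 on the minus strand of GRCm38.p6 and is shown because it was the only one of the 5 measured members with a window to hold a full CRE, the binding site of CREB and ATF proteins.
Btg2: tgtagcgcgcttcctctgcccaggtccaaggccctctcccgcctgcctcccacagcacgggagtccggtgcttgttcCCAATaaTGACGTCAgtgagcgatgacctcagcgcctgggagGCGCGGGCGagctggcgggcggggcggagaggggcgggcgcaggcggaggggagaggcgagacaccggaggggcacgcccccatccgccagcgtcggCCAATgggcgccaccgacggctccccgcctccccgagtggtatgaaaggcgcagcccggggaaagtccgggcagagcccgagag
Its capitals mark CCAAT from 173 to 169 and from 34 to 30 bases before the start, the CRE from 166 to 159 and the EGR site GCGCGGGCG from 131 to 123. Btg2 was the least abundant of the 7 genes in wild-type liver, at 1.78 FPKM, and was at 1.089 in the knockout library. The difference was 1.63-fold as deposited and -0.26 as a relative log2 ratio, and 18.1% of genes with a mean under 3 FPKM lay as low or lower.

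The motifs were searched on both strands of the windows of the 5 measured members that have one, Btg2, Gadd45a, Gadd45g, Jun and Junb, and of all 32851 windows in the RefSeq table. The CRE TGACGTCA was found in 1 of 5, against 1.79% of all windows, and its short form TGACG, which every full CRE contains, in 2 of 5, against 20.8%. The EGR motif GCGNGGGCG was in 1 of 5 (5.55% of all windows), and TATAAA in 2 of 5 (13.6%). CCAAT, a motif added after the others, was in 5 of 5 (37.4%). The AP-1 motif TGANTCA (7.81% of all windows) and the CArG box, the site of the serum response factor (1.63%), were in 0 of 5. Only these forms were searched, so a count of 0 does not mean that variant forms are absent, such as tgacatca in the Jun window. A match is a stretch of letters and no evidence of binding, and these windows do not reach more distant sites.

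**Figure D1:**
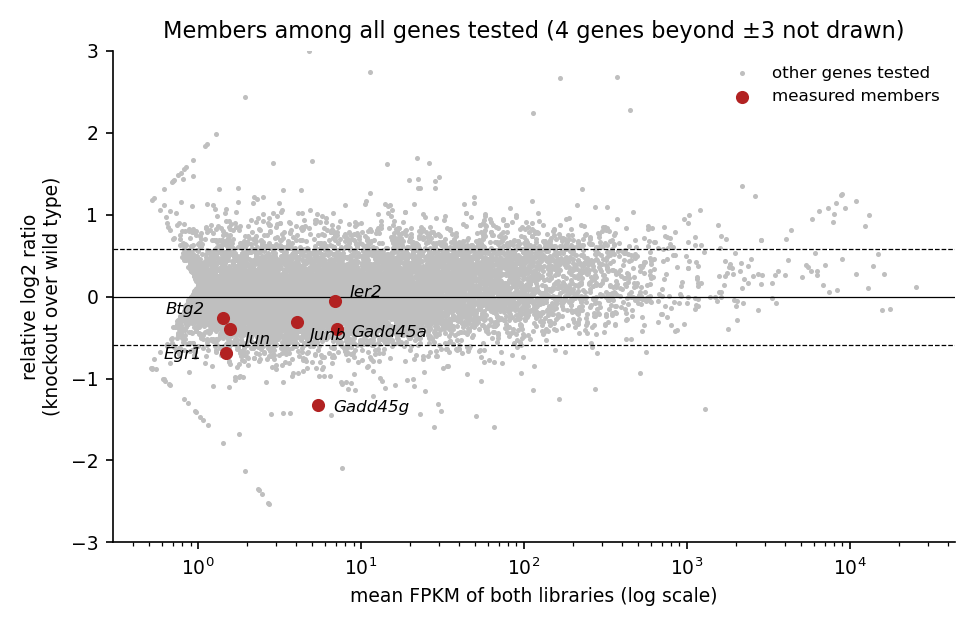
Each grey point is a gene, with its mean FPKM over both libraries on a log axis and its relative log2 ratio (knockout over wild type) on the vertical axis, and red points are the 7 measured members. The dashed lines mark 1.5-fold, and Gadd45g (-1.33) and Egr1 (-0.69) lie below the lower one while Ier2 (-0.051) sits at the median. The 4 genes beyond 3 in either direction are not drawn.

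Transcript length moved with the ratio across genes, so each member was set beside genes of its own length. Over the 10609 genes with a length in the annotation, the Spearman rho between length and ratio was -0.41, a description across genes, which are not independent replicates and share both libraries. The median relative log2 ratio was 0.34 in the shortest of 5 equal groups of transcripts (42 to 1134 bases) and -0.12 in the longest. Gadd45g, with a longest transcript of 1071 bases, belongs to the shortest group, and Gadd45a (1223 bases), Ier2 (1522) and Junb (1809) to the next. Their ratios were thus below genes of their own length as well. After correction for length Gadd45g was at -1.56 and Gadd45a at -0.50. Btg2 (2743 bases) and Jun (3189 bases) fell in the middle group, with a median of -0.048. Egr1, the longest of the 7 at 4484 bases, lay among genes whose median was -0.091.

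**Figure D2:**
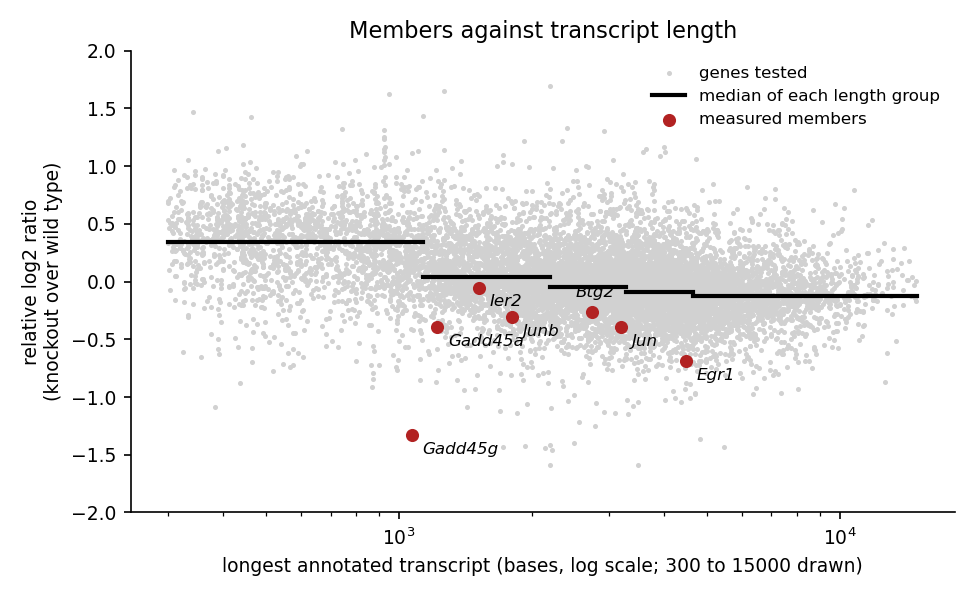
The longest annotated transcript of each gene in bases (log axis) is plotted against its relative log2 ratio, with black bars for the median of each of 5 length groups and red points for the measured members. Gadd45g lies at -1.33 in the group whose median is 0.34, and Egr1 at -0.69 where the median is -0.091. Genes outside 300 to 15000 bases or beyond 2 in ratio are not drawn.

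The same 7 genes were followed under 10 settings of the pseudocount, scaling, minimum, length correction and treatment of repeated symbols. Each of them had a negative ratio in every setting that kept it. Gadd45g ranged from -1.60 to -1.33 and stayed past 2-fold, although it reached the minimum of 5 FPKM only in the wild-type library. Egr1 ranged from -1.20 to -0.58, Jun from -0.68 to -0.33, Gadd45a from -0.68 to -0.39, Junb from -0.58 to -0.31, Btg2 from -0.49 to -0.20 and Ier2 from -0.34 to -0.050. The order at the ends was thus kept, with Gadd45g lowest and Ier2 nearest to 0.

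**Figure D3:**
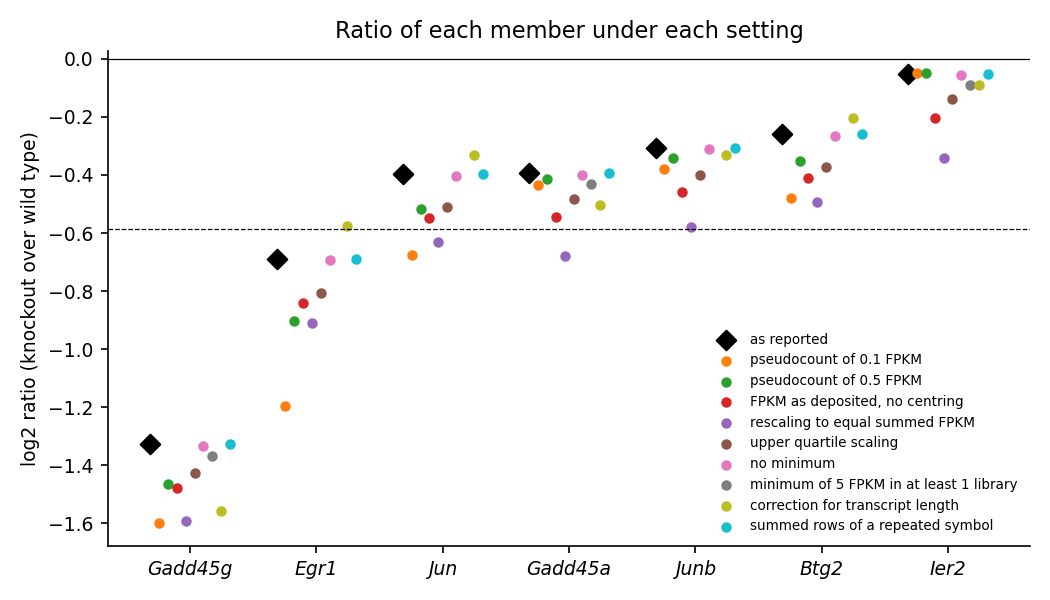
Each column is a measured gene and each point its log2 ratio (knockout over wild type) under 1 of 10 settings, with the black diamond for the value as reported and a dashed line at 1.5-fold downward. All points lie below 0, those of Gadd45g between -1.60 and -1.33 and those of Ier2 between -0.34 and -0.050. The settings restate the same values of each gene, and in those not centred on the median most genes lay below 0.

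Other immediate early genes lay on both sides of the all-gene median. Of 40 listed, 24 could be compared, 14 of them below it, and the list median was -0.15. At least 1.5-fold lower were 3 and higher 1, against 2.61% and 6.73% of all genes, which are also the shares to set beside the lists below. The lowest were Phlda1, which encodes a pleckstrin-homology-like protein (11.04 FPKM in wild-type and 4.19 in Adipoq-/- liver, relative log2 ratio -1.06), and Egr2, a paralog of Egr1 (1.0081 and 0.0681 FPKM, -0.76), which passed the minimum of 1 FPKM through its wild-type value alone. The third was Zfp36, named after its value was seen, which encodes the mRNA-destabilising protein tristetraprolin (14.9 and 8.45 FPKM, -0.60). Klf10 (3.42 and 5.05 FPKM, 0.60) and the clock gene Per1 (0.556 and 1.092 FPKM, 0.58), which passed the minimum in the knockout library alone, were the highest. Errfi1, a feedback inhibitor of the EGF receptor and the most abundant of the list, was at 103 and 99.6 FPKM (0.098).

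By list median, the families and pathways around the members lay closer to the median of all genes. For the upstream kinases and transcription factors described below, this depended on the minimum. Their median was -0.199 with a minimum of 5 FPKM, against -0.193 for other immediate early genes. With no minimum the medians were -0.110 and -0.092. Among other AP-1 and ATF genes 7 of 12 lay below it (list median -0.051, and 0.017 after length correction), with the stress factor Atf5 lowest (167 and 113 FPKM, -0.41), then Atf2 (7.82 and 5.51 FPKM, -0.29). Crem (24.1 and 29.2 FPKM, 0.42) and Atf7 (1.61 and 2.84 FPKM, 0.71) were the highest, and Atf7 was the only one past 1.5-fold. Of other p53 targets and growth arrest genes 14 of 26 lay below the median (-0.017, and 0.032 after length correction). The p53 gene Trp53 itself (7.35 and 4.35 FPKM, -0.49) and the proapoptotic Bbc3 (6.43 and 3.97 FPKM, -0.43) were the lowest. Btg3, a relative of Btg2, was the highest (0.765 and 1.89 FPKM, 0.86) and the only one past 1.5-fold, but passed the minimum in the knockout library alone. It was followed by Gadd45gip1, whose product binds GADD45 proteins (15.5 and 18.7 FPKM, 0.41). The noncoding Gas5 was the most abundant (109 and 105 FPKM, 0.095).

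Upstream kinases and transcription factors lay below the median in 17 of 24 cases, with a list median of -0.11. Crtc2, the CREB coactivator, was the only one past 1.5-fold (10.5 and 5.55 FPKM, -0.66), and the ribosomal S6 kinase Rps6ka1 came next (7.01 and 4.16 FPKM, -0.48). The JNK gene Mapk8 (10.4 and 11.6 FPKM, 0.29) and Rps6ka3 (1.87 and 2.07 FPKM, 0.25) were the highest, and Map2k2, a kinase that activates ERK, the most abundant (58.6 and 57.1 FPKM, 0.11). Of the binding partners of the member proteins 9 of 13 lay below the median (list median -0.023, and 0.061 after length correction), and 0 passed 1.5-fold. The lowest was Nr1i3, the xenobiotic receptor CAR, which GADD45B can coactivate (43.2 and 26.1 FPKM, -0.55), before the JNK kinase Map2k7 (6.95 and 4.24 FPKM, -0.45). The cell cycle partners Pcna (20.5 and 20.6 FPKM, 0.16) and Cdk1 (1.042 and 1.094 FPKM, 0.19) were the highest.

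**Figure D4:**
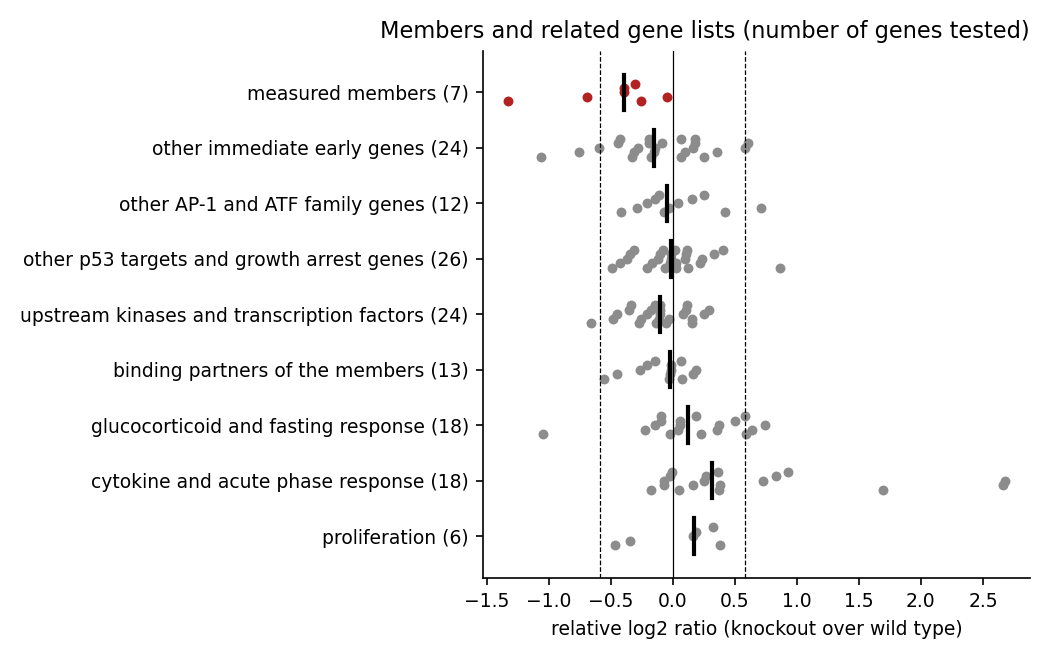
Each point is a gene, placed by its relative log2 ratio (knockout over wild type), in rows for the measured members (red) and the 8 related lists (grey), with the number of genes compared in brackets, a black bar at each median and dashed lines at 1.5-fold in either direction. The median of the measured members is -0.39, that of other immediate early genes -0.15 and that of cytokine and acute phase genes 0.32.

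Markers of cell types were summed as a description of the libraries, and a sum can rest mostly on 1 gene. The 9 hepatocyte markers summed to 50227 FPKM in wild-type and 48202 in Adipoq-/- liver, led by Alb (17522 and 14031 FPKM). The other 8 summed to 32705 and 34171 FPKM, and 6 of 9 lay above the all-gene median. Kupffer cell and macrophage markers summed to 267 and 317 FPKM, with 10 of 12 above the all-gene median and Lyz2 the most abundant. Sums for sinusoidal endothelium were 71.5 and 74.2 FPKM (Clec4g the most abundant), for stellate cells 95.7 and 99.1 (Dcn), for cholangiocytes 16.2 and 23.6 (Spp1), and for erythroid cells 11823 and 13493 (Hbb-b1). Besides the hepatocyte list, which was lower through Alb, the lists with lower sums are those of neutrophils, lymphocytes and adipocytes. Sums were 24.6 and 20.5 FPKM for neutrophils (S100a9, 2 of 3 below the median) and 5.05 and 3.52 for lymphocytes (Ccl5, 1 of 2 below it). For adipocytes they were 2165 and 1471 FPKM, with 3 of 4 below the median. Nearly all of both adipocyte sums was Car3 (2137 and 1457 FPKM), so they say little about the rest of that list or about adipocytes as cells. Of that rest, named after their values were seen, Cfd (13.3 and 2.01 FPKM) and Cidec (4.73 and 0.913 FPKM) were at least 2-fold lower, against 0.476% of all genes. Cidec passed the minimum of 1 FPKM through its wild-type value alone. Fabp4 lay above the median (9.61 and 10.95 FPKM, relative log2 ratio 0.32). No listed marker was at 0 in both libraries. The part of these cells in the levels of the members was not tested.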

How the data were processed

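Liver RNA of 2 genotypes was sequenced as 1 pooled library each. The authors deposited FPKM per gene symbol, and TopHat, Cuffdiff and the builds mm9 and NCBIM37 are named per the submitters' processing notes. Versions, annotation and filters were not given in the sources used here. Both tables share 13352 rows in 1 order, with 26 symbols repeated, for which the row of higher mean FPKM was used. Over the 13326 symbols so kept, the higher of the paired values was at least 0.548 FPKM. Low values were searched for steps left by whole reads. At most 5 of 1298 low genes had equal log2 ratios at 3 decimals, and whole reads were not recovered.

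Ratios were log2((knockout + 1) / (wild type + 1)) minus the median over the 11985 genes with at least 1 FPKM in either library, computed in Python 3.11.15 with pandas 2.3.3 and tested on simulated data. The simulated wild-type levels were all at least 5 FPKM, so the lower levels of Egr1, Jun, Junb and Btg2 were not covered. The calls are fold sizes, not tests. Lengths are the longest GENCODE vM21 transcript, found for 88.5% of genes, and promoters come from RefSeq (GRCm38.p6). Of the 7 measured members 5 had a promoter window. Coordinates belong to that build only. The alternatives were pseudocounts of 0.1 and 0.5 FPKM, 3 other scalings, no minimum or 5 FPKM, length correction, summed repeats and, added later, plain FPKM.

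The genes named are the members, the 2 highest, the 2 lowest and the most abundant of each related list, the most abundant marker of each cell type, and the 2 genes nearest to Egr1 and to each member past 1.5-fold. Of these nearest genes, 2 are not reported here. The members and lists were chosen with earlier results of these data known.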

Additional observations from a re-analysis of the deposited data

How the results depend on the processing

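The median ratio of the 7 measured members was -0.39 and became -0.63 after rescaling to equal summed FPKM. The count at least 1.5-fold lower was 2, against 2.61% of all genes. It became 3 with an added 0.1 FPKM (5.90% of all genes) and 4 with equal sums (12.5%). On plain FPKM with nothing added and no centring, chosen after the values were seen, it was 5 (13.6%). It was 1 with a minimum of 5 FPKM, which kept 3 members (3.12%), and 1 after length correction (2.89%). The 1 called with a minimum of 5 FPKM, Gadd45g, reached that level only in the wild-type library, where it was higher. The count at least 2-fold lower was 1, against 0.476% of all genes, and 2 with an added 0.1 FPKM, against 1.53%. All 3 members kept at a minimum of 5 FPKM lay below the median. Of 8 related lists 5 had a negative median, and 2 after length correction. There the medians turned to 0.017 for AP-1 and ATF genes, 0.032 for p53 targets and 0.061 for binding partners. The glucocorticoid and fasting median turned to -0.029 without centring and -0.18 with equal sums, and that of proliferation to -0.096 with equal sums and -0.39 with a minimum of 5 FPKM. The causes were not tested. With 1 pooled library per genotype no library could be left out and no paired analysis was possible. An unknown depth limits the low genes most, Egr1, Jun and Btg2 above all.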

Other observations

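Signals that induce immediate early genes in liver were described by further lists. Of 18 cytokine and acute phase genes 13 lay above the all-gene median (list median 0.32, but 0.17 without centring and 0.032 with equal sums). Of the 18, 6 were at least 1.5-fold higher, against 6.73% of all genes. The serum amyloid genes Saa1 (110 FPKM in wild-type and 636 in Adipoq-/- liver, relative log2 ratio 2.68) and Saa2 (49.3 and 286 FPKM, 2.66) were the highest, although reads are hard to divide between these close paralogs. Haptoglobin (Hp), the most abundant, was at 1072 and 1253 FPKM (0.38). The cytokine inhibitor Socs2 (2.97 and 2.16 FPKM, -0.18) and Il1b (1.94 and 1.52 FPKM, -0.071) were the lowest.

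Glucocorticoid and fasting genes had a median of 0.12, which turned to -0.029 without centring and -0.18 with equal sums, and 12 of 18 lay above the all-gene median. At least 1.5-fold higher were 3 of the 18, against 6.73% of all genes. They were the glucocorticoid target Tsc22d3 (18.04 and 27.6 FPKM, 0.74), the metallothionein Mt2 (2.099 and 3.35 FPKM, 0.64) and, named after its value was seen, the gluconeogenic Pck1 (0.59). Pdk4, which restrains pyruvate oxidation, was the only one at least 1.5-fold lower (5.04 and 1.64 FPKM, -1.04), against 2.61% of all genes. Igfbp1 came next (7.98 and 5.94 FPKM, -0.22). The aminotransferase Tat was the most abundant (470.2 and 440 FPKM, 0.057). Of 18 proliferation genes 6 could be compared, with 4 above the median and 0 past 1.5-fold, a list median of 0.17 that turned to -0.096 with equal sums. Rrm2 (1.23 and 1.61 FPKM, 0.38) and Ccnd1 (3.60 and 4.17 FPKM, 0.32) were the highest, and Mcm7 (5.54 and 3.27 FPKM, -0.47) and Tyms (10.7 and 7.302 FPKM, -0.35) the lowest.

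The gene nearest to Gadd45g in both libraries, by distance on log2(FPKM + 1), was the lysophospholipid transporter Mfsd2a (10.3 and 2.74 FPKM, distance 0.28), and the one nearest to Egr1 was Gm14418 (2.14 and 0.784 FPKM, distance 0.022). Likeness over 2 libraries is only a likeness of level and ratio.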
